A study of Arabidopsis thaliana with 9 samples.

Results

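The tiny124 triple mutant was set against wild type (WT) in whole rosettes of Arabidopsis thaliana, to ask which transcripts differ when 3 genes of the TINY group are mutated. The comparison took the 3 tiny124 and the 3 WT libraries, 6 of the 9 in the series, chosen by their genotype labels. Every gene that passed a filter on low counts was included, 16434 of the 32833 in the count table. The tiny124 plants are labelled tiny1tiny2tiny4, and the labels give neither the alleles nor the number of plants behind a library, nor the locus of tiny4. All plants were 4 weeks old and grew in 16 h of light and 8 h of darkness. The remaining 3 libraries come from a line labelled BES1P::TINYOE (TINYOE), grown in the same way. They helped to estimate the spread between libraries. They are set beside tiny124 for members of the TINY subgroup, for 1 chromosome segment and in the closing paragraphs.

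TINY is a transcription factor of the AP2/ERF family, in a subgroup of the DREB factors that is known to bind the dehydration-responsive element of promoters. Plants that overproduce it are dwarfed, and the title of the series places it between growth driven by brassinosteroids, the steroid hormones of plants, and the response to drought. Loss of related factors can be hidden by other members of the subgroup, and for that reason several are commonly removed together.

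Each library counts 1 tag near the 3' end of a polyadenylated transcript, so a count does not grow with the length of the transcript. Library totals ran from 5217176 to 6070778 counts in tiny124 and from 4917868 to 5557064 in WT. Levels are given as CPM, the counts of a gene scaled to a common library size, after scaling for library composition. Libraries of the same genotype correlated at 0.971 to 0.977 in tiny124 and at 0.943 to 0.966 in WT (Pearson, log2 CPM across genes). On the first principal component of the 6 libraries, with 39.0% of the variance, WT replicate 1 lay farthest out, at 56.2 against 12.2 or less in the other libraries. WT replicate 2 stood apart on the second principal component, which held 27.6% of the variance: the tiny124 libraries lay between 7.88 and 29.4, WT replicates 1 and 3 at -2.61 and -6.72, and WT replicate 2 at -47.7. WT replicate 2 was the highest WT library in 157 of the 287 genes called higher in tiny124, described below. Among the 124 called lower it was the lowest WT library in 46 and the highest in 41. Such shares over all tested genes were not counted, here or for the gene lists below.

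The mutated genes were examined first. TINY (AT5G25810) was counted 3, 5 and 4 times in tiny124 and 20, 18 and 25 times in WT, so no tiny124 library reached the lowest WT library. Its level averaged 0.706 ± 0.132 CPM in tiny124 and 4.06 ± 0.450 CPM in WT (SD, n = 3 each), with a log2 fold change, tiny124 over WT, of -2.48 ± 0.37 (SE). That fall passed edgeR's quasi-likelihood test (adjusted p = 0.00168). TINY2 (AT5G11590) held 1 count over all tiny124 libraries and 23 over all WT libraries, too few to enter the test. The ratio of its depth-scaled counts, tiny124 over WT, was 0.0398, with an exact 95% interval of 0.000967 to 0.245 that covers counting error only.

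Of the 19 loci in the subgroup, 7 were tested and 3 fell. Beside TINY these were AT4G32800 and AT2G44940, both annotated only as DNA-binding proteins of the AP2/ERF type. AT4G32800 stood at 2.07, 1.32 and 1.63 CPM in tiny124, against 14.6, 7.62 and 14.3 CPM in WT, a difference of -2.86 ± 0.32 (adjusted p = 0.00017) on the log2 scale. AT2G44940 stood at 2.64, 2.98 and 3.45 CPM in tiny124, against 8.92, 6.78 and 10.8 CPM in WT, which is -1.55 ± 0.28 (adjusted p = 0.00672) on the log2 scale. In both genes every tiny124 library was below every WT library. The labels do not say whether either of them is the third mutated gene. Both genes were also lower in TINYOE than in WT. By the same test, AT4G32800 was at -1.48 (adjusted p = 0.00201) and AT2G44940 at -2.52 (adjusted p = 6.21e-05) in TINYOE over WT. Between the lines, TINYOE minus tiny124 was 1.38 (adjusted p = 0.0205) in AT4G32800, which was thus lower in tiny124 than in TINYOE. In AT2G44940 it was -0.97 (adjusted p = 0.0914) and did not pass the test. The remaining 4 tested members did not pass the test in tiny124 over WT: AT4G16750 at -0.05, AT1G01250 at -0.09, AT4G31060 at 0.15 and AT1G44830 at 0.47 (log2 fold changes).

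The neighbours of TINY, TINY2 and the other family members that fell were examined next. Among the 10 tested genes on each side, the log2 fold changes lay between -0.43 and 0.64 around TINY, between -0.51 and 0.49 around TINY2 and between -0.48 and 0.56 around AT4G32800. Beside AT2G44940, 1 of 20 was called, the plastocyanin-like gene UCC2. Along the chromosomes, the median log2 fold change in windows of 21 neighbouring genes ran from -0.29 to 0.34, with at most 5 called genes in a window. The last stretch of chromosome 1, which runs from gene AT1G78410 to gene AT1G80970, had a median of 0.92 in TINYOE over WT across 193 tested genes. In tiny124 over WT its median was -0.03, with 6 genes higher and none lower. Over all tested genes, 1.75% were called higher and 0.755% lower.

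Over the whole transcriptome, 411 of 16434 genes differed between tiny124 and WT at an adjusted p under 0.05, which is 2.50% of those tested. Of these, 287 were higher in tiny124 (1.75%) and 124 were lower (0.755%). The change was at least 2-fold in 205 of the higher genes and 65 of the lower ones. An unadjusted p under 0.05 was reached by 1904 genes. The median over all tested genes was -0.01 (log2), with quartiles at -0.21 and 0.21. The tiny124 and WT libraries did not overlap in any of the 287 higher genes and in 123 of the 124 lower ones, which a call nearly entails. Over all 16434 tested genes, 1352 had every tiny124 library above every WT library and 1245 had every one below. The 82 tested plastid genes had a median of -0.07 and the 17 tested mitochondrial genes a median of -0.04. The counts of calls rested in part on single libraries: with 1 tiny124 library or WT replicate 3 left out, 129 to 178 genes were higher and 34 to 77 lower.

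**Figure D1:**
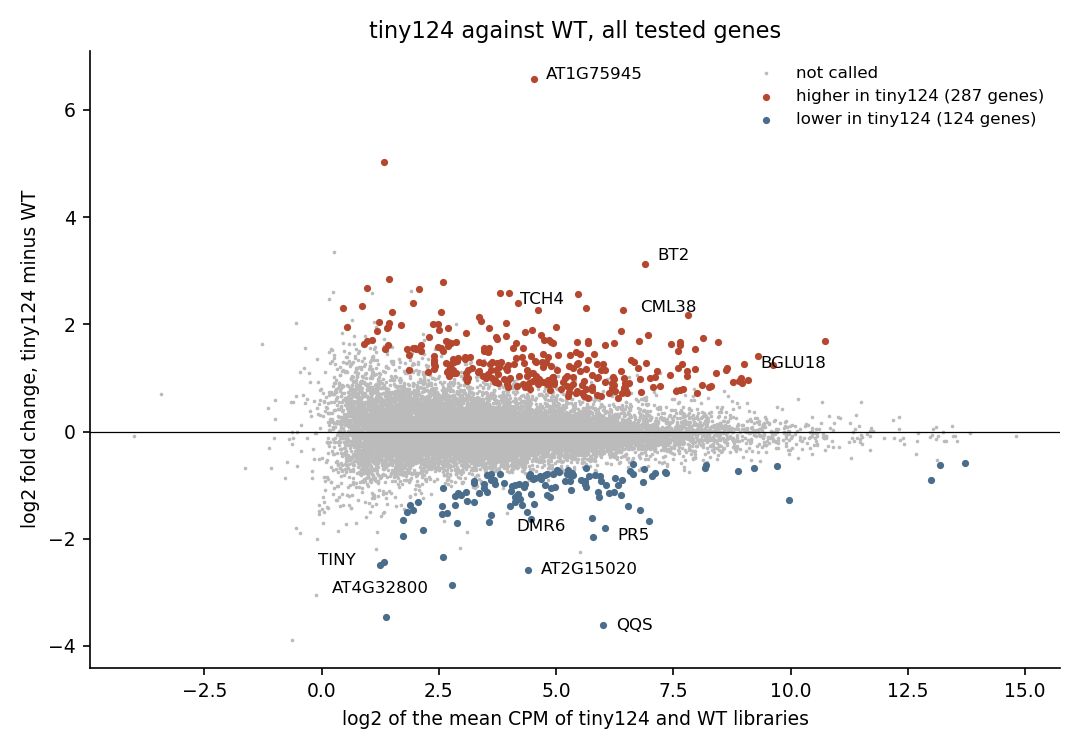
Log2 fold change of tiny124 over WT (vertical axis) against the log2 mean CPM of the 6 libraries (horizontal axis), 1 point per tested gene; 1 tested gene with no counts in these libraries is not drawn. The 287 genes called higher lie above the line and the 124 called lower below it, with AT1G75945 and QQS at the extremes among genes of middle abundance.

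The largest increase belonged to AT1G75945, which encodes a small uncharacterised protein and has no symbol (named after its values were seen). It stood at 43.7, 49.0 and 43.8 CPM in tiny124, against 0.759, 0.212 and 0.367 CPM in WT, close to silent in every WT library, with a log2 fold change of 6.58 ± 0.31 (adjusted p = 4.25e-09). The 20 tested genes around it lay between -0.38 and 0.88. BT2 rose most among the genes that have a symbol, no overlap between genotypes and a mean level of 5 CPM or more. BT2, an adaptor protein with BTB and TAZ domains that responds to sugar and nitrate, stood at 195, 195 and 252 CPM in tiny124, against 16.9, 40.9 and 15.9 CPM in WT. Its means were 214 ± 33.1 CPM in tiny124 and 24.6 ± 14.1 CPM in WT (SD, n = 3 each), an increase of 8.76 times. The log2 fold change was 3.13 ± 0.28 (adjusted p = 2.15e-05).

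The next largest increases were in CYP706A2, a cytochrome P450 (2.80, adjusted p = 0.000237), the phosphate-induced cell wall gene PHI-1 (2.59, adjusted p = 0.00132), the thionin THI2.1, an antimicrobial peptide (2.58, adjusted p = 0.0459), and MRD1 (2.57, adjusted p = 0.00866). They were followed by TCH4, a xyloglucan endotransglucosylase induced by touch (2.31, adjusted p = 0.000231), CML38, a calmodulin-like calcium sensor (2.26, adjusted p = 9.62e-06), AIR1, an auxin-induced gene of the lipid-transfer type (2.07, adjusted p = 0.0238), and LOX4, a lipoxygenase of jasmonate synthesis (2.03, adjusted p = 0.0051). DIN11, a dark-inducible oxygenase (1.998, adjusted p = 0.014), BT5 (1.95, adjusted p = 6.83e-05) and the small peptide gene RTFL12 (1.93, adjusted p = 0.0132) completed the 12. All values are log2 fold changes of tiny124 over WT. AIR1 spread widely within tiny124, at 7.34, 11.6 and 32.5 CPM in tiny124, against 6.08, 2.96 and 3.12 CPM in WT. THI2.1 did so too, at 27.9, 9.10 and 35.4 CPM in tiny124, against 7.78, 2.54 and 1.65 CPM in WT, and its close relatives can share tags with it. With 1 library left out, the highest adjusted p was 0.209 for THI2.1 without tiny124 replicate 1 or 3 or WT replicate 2 or 3, 0.0531 for MRD1 without WT replicate 3 and 0.125 for AIR1 without tiny124 replicate 3 or WT replicate 3. It was 0.085 for DIN11 without tiny124 replicate 1 or 2 and 0.0925 for RTFL12 without tiny124 replicate 1. With DESeq2, THI2.1 had an adjusted p of 0.564, and AIR1 was lost when only the 6 tiny124 and WT libraries were fitted (adjusted p = 0.0533).

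The promoters of 3 genes that rose are shown because each holds a motif whose share among the higher genes is given below, a W-box core in TCH4 and CML38 and a sugar-repression element in BT2. Each is the 250 bases before the annotated start in the RefSeq annotation of TAIR10.1, 5′ to 3′ on the strand of the gene, which is the minus strand in all of them. TCH4 lies at chr5:23308681-23308930, CML38 at chr1:28768139-28768388 and BT2 at chr3:17910739-17910988. Capitals mark TTGACC or TTGACT on either strand, the core of the W-box bound by WRKY factors, in TCH4 (where it reads AGTCAA) and CML38, and TATCCA, an element of sugar-repressed promoters, in BT2.
TCH4: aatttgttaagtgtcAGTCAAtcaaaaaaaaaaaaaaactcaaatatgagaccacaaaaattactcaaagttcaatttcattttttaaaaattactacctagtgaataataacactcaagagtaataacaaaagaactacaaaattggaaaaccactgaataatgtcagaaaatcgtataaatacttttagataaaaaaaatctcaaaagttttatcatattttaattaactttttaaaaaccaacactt
CML38: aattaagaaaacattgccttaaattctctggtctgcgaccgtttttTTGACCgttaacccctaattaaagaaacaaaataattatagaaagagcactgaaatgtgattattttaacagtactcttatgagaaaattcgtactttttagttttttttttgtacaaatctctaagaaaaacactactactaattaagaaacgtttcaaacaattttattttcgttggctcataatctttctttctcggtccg
BT2: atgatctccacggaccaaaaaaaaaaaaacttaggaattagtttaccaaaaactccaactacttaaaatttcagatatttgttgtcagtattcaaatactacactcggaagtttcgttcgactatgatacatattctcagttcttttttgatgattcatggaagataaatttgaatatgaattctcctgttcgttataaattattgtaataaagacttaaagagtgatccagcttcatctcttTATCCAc
Each of these promoters holds 1 match to the motif marked in it. Over both strands, TTGACC or TTGACT was found in 39.7% of the promoters of the 287 higher genes, in 29.8% of those of the 124 lower genes and in 27.7% of 16334 tested genes with a promoter. TATCCA, a motif added after the data were seen, was found in 22.6%, 19.4% and 14.5% of the same groups. CGCGTT, bound by calmodulin-binding CAMTA factors, was found in 5.23%, 4.03% and 2.79%. CCGAC, the core of the dehydration-responsive element, was found in 13.2% of the higher genes, 10.5% of the lower genes and 13.2% of all tested genes. GCCGCC, which ERF factors bind, was found in 1.05%, 0% and 1.99%. The G-box CACGTG was found in 8.01%, 10.5% and 7.32%, and the evening element AAAATATCT of clock-regulated genes in 3.83%, 3.23% and 2.60%. Overlaps between motifs were not removed. These shares are descriptions of the letters in a window and were not tested.

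The strongest decrease was in QQS, a gene without known relatives in other genera that affects the balance of starch and protein. QQS stood at 13.6, 8.27 and 7.26 CPM in tiny124, against 116, 111 and 130.0 CPM in WT, a fall of 12.3 times with no overlap between the genotypes. Its log2 fold change was -3.62 ± 0.24 (adjusted p = 4.49e-07). Of the 20 tested genes around it 1 was called, PMAT2. Among genes with a symbol, a mean level of 5 CPM or more and no overlap, the next in size were PR5, a thaumatin-like protein of the salicylate response (-1.79, adjusted p = 0.0188), the natriuretic peptide gene PNP-A (-1.71, adjusted p = 0.0396), WRKY54 (-1.69, adjusted p = 0.00255) and BGL2, better known as the glucanase PR2 (-1.67, adjusted p = 0.00908). RLP41, a receptor-like protein (-1.63, adjusted p = 0.00945), DMR6, a salicylate hydroxylase (-1.62, adjusted p = 0.000173), and HYH, a bZIP factor of light signalling (-1.51, adjusted p = 0.00555), came next. The calcium-binding protein CP1 (-1.39, adjusted p = 0.00139), the chlorophyllase CLH2 (-1.38, adjusted p = 0.0301), the ankyrin protein ANK (-1.35, adjusted p = 0.00447) and PCR1, a small membrane protein of cadmium resistance (-1.27, adjusted p = 0.0051), completed the 12. All values are log2 fold changes of tiny124 over WT. Leaving out 1 library, the adjusted p reached 0.109 for PR5 without tiny124 replicate 1 or 2 or 3, 0.138 for PNP-A without tiny124 replicate 1 or 2 or 3 or WT replicate 2 and 0.0606 for PR2 without tiny124 replicate 1 or 2. It was 0.0523 for RLP41 without tiny124 replicate 2 and 0.159 for CLH2 without tiny124 replicate 1 or 2 or 3 or WT replicate 1. In the fit of only the 6 tiny124 and WT libraries, the call of PNP-A (adjusted p = 0.0763) was lost.

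Genes were grouped in 34 lists by pathway and cell type, and the members of each were counted against the 1.75% of all tested genes that were higher and the 0.755% that were lower. The lists were chosen with earlier results of these data known, so the shares are a description only. Members called higher were most frequent in the list of BT proteins and sugar starvation, with 15 of 25. Members called lower were most frequent in the TINY subgroup, with 3 of 7, followed by the light and shade list with 3 of 12, the circadian clock list with 5 of 23 and the salicylate list with 4 of 24.

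**Figure D2:**
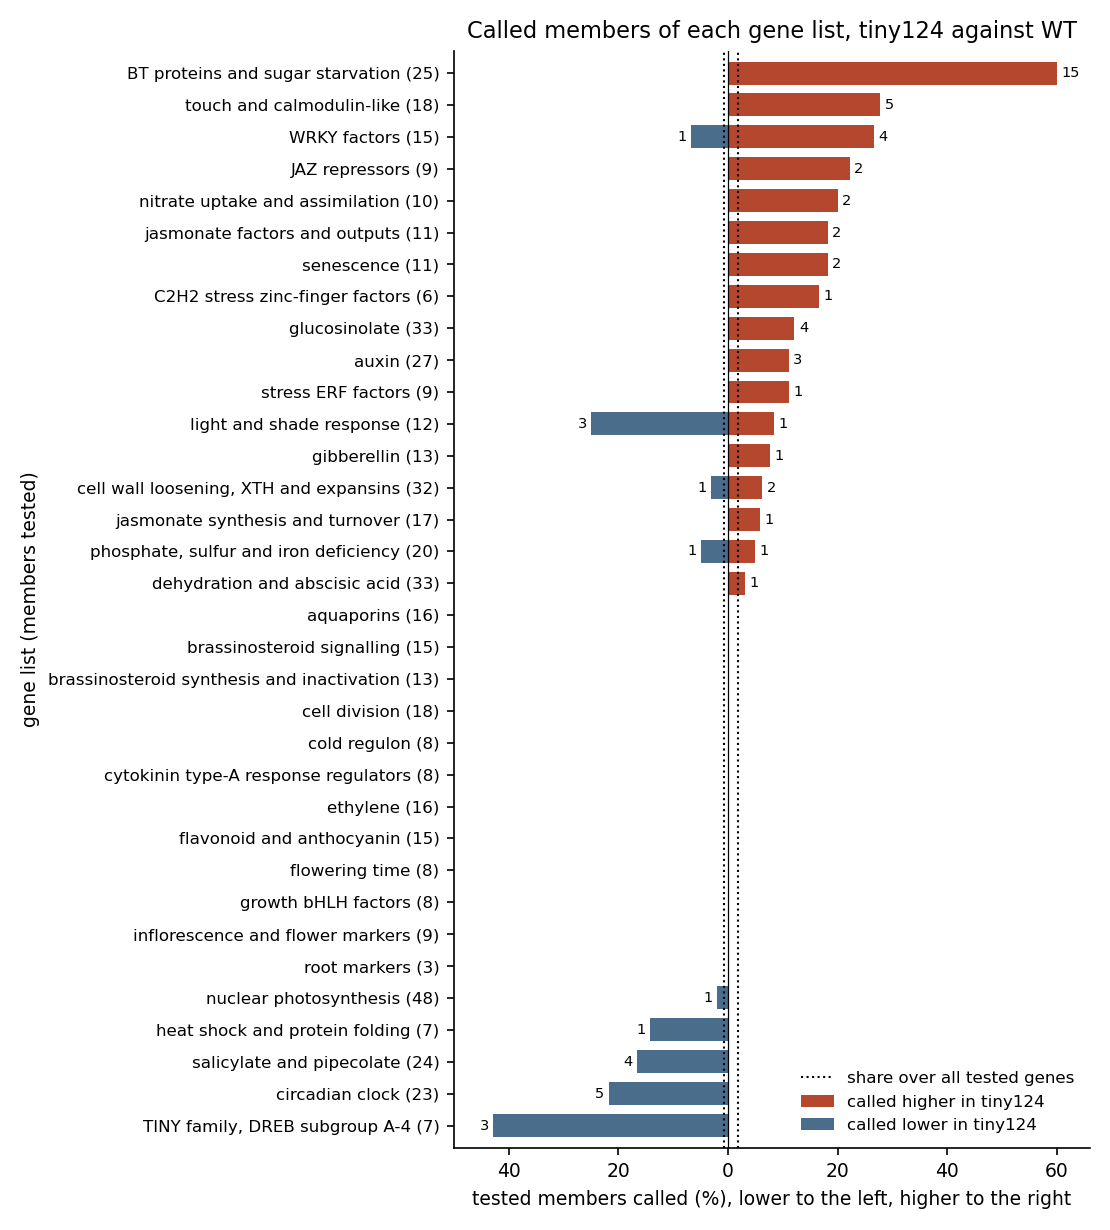
Share of the tested members of each gene list that was called higher (bars to the right) or lower (bars to the left) in tiny124 than in WT, in percent; the number at a bar is the number of genes called, the number in parentheses the number tested, and the dotted lines the shares over all tested genes, 1.75% and 0.755%. The BT and sugar-starvation list reaches farthest to the right with 15 of 25 members, and the TINY subgroup farthest to the left with 3 of 7.

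Among the 34 lists, that of genes that plants switch on when sugar is short had the most members called higher. Of 25 tested members of the list, 15 were higher in tiny124 and none was lower, with a median log2 fold change of 0.91 against -0.01 over all tested genes. They included 4 of the 5 BT scaffold proteins. In 12 of the 15, WT replicate 2 was the WT library nearest to tiny124, and without that library 15 members were called, not all of them the same genes, since AKINBETA1 was lost. Over the libraries left out in turn the number ran from 11 to 15.

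The BT proteins recruit targets to ubiquitin ligases and respond to sugar, nitrate and time of day. After BT2, whose promoter is shown above, the increases were in BT5 at 52.2, 44.5 and 55.6 CPM in tiny124, against 15.4, 14.0 and 10.08 CPM in WT, and in BT1 at 144, 136 and 219.9 CPM in tiny124, against 47.8, 65.6 and 41.4 CPM in WT. BT4 stood at 55.0, 59.7 and 47.6 CPM in tiny124, against 17.8, 29.4 and 22.0 CPM in WT. In all of these, the lowest tiny124 library was above the highest WT library. The log2 fold changes were 1.95 ± 0.20 in BT5, 1.69 ± 0.22 in BT1 and 1.23 ± 0.21 in BT4 (adjusted p = 6.83e-05, 0.000407 and 0.00426). BT3 was at -0.35 (adjusted p = 0.766) and did not pass the test.

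ASN1, an asparagine synthetase that stores nitrogen in darkened leaves, stood at 51.6, 36.7 and 34.3 CPM in tiny124, against 11.0, 13.3 and 13.0 CPM in WT. SEN1, a marker of dark-induced senescence, stood at 84.9, 64.3 and 86.6 CPM in tiny124, against 24.3, 31.3 and 17.6 CPM in WT. bZIP1, a transcription factor of the low-energy response, stood at 80.6, 84.7 and 82.4 CPM in tiny124, against 24.9, 36.4 and 29.7 CPM in WT. In each of these the genotypes were well apart, and the tiny124 levels of bZIP1 were nearly equal. The log2 fold changes were 1.71 ± 0.22 (adjusted p = 0.000464) in ASN1, 1.69 ± 0.21 (adjusted p = 0.000357) in SEN1 and 1.45 ± 0.17 (adjusted p = 0.00024) in bZIP1. DIN10, a raffinose synthase-like gene, was at 0.91 (adjusted p = 0.0199), the hexose carrier STP1 at 0.90 (adjusted p = 0.0144), and AKINBETA1, a subunit of the SnRK1 energy sensor, at 0.81 (adjusted p = 0.0327).

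The EXORDIUM family of secreted growth proteins, which responds to low carbon, rose in 3 genes: PHI-1, described above, EXO (1.56, adjusted p = 0.00179) and EXL2 (1.19, adjusted p = 0.00703) on the log2 scale. PHI-1 stood at 33.1, 28.3 and 20.9 CPM in tiny124, against 2.28, 8.26 and 3.30 CPM in WT. Of the class II trehalose phosphate synthase genes, TPS8 (1.20, adjusted p = 0.00741) and TPS11 (1.01, adjusted p = 0.0113) rose. TPS9 was at 0.82 (adjusted p = 0.0505) and TPS10 at 0.57 (adjusted p = 0.183), and TPS5, ATTPS6 and TPS7 lay between -0.40 and 0.19, none of them past the test. When single libraries were left out, the adjusted p reached 0.0944 for DIN10 without tiny124 replicate 1 or 2 or 3 or WT replicate 3, 0.0864 for STP1 without tiny124 replicate 3 or WT replicate 3 and 0.164 for AKINBETA1 without tiny124 replicate 1 or 3 or WT replicate 2 or 3. It was 0.0727 for TPS11 without tiny124 replicate 3 or WT replicate 3. When only the 6 tiny124 and WT libraries were fitted, the calls of DIN10 and AKINBETA1 (adjusted p = 0.055 to 0.0606) were lost.

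Outside the lists, 4 strongly expressed genes were named after their values were seen. AT3G15450, annotated as an aluminium-induced protein, stood at 2635, 2585 and 2569.7 CPM in tiny124, against 714, 1027 and 666 CPM in WT. AT2G20670, a protein of the DUF506 type, stood at 329.5, 413 and 371 CPM in tiny124, against 74.8, 107 and 64.2 CPM in WT. AT5G19120, an aspartyl protease-like gene, stood at 444, 458 and 401 CPM in tiny124, against 115, 183 and 93.9 CPM in WT, and AT3G10020 stood at 587, 539 and 473 CPM in tiny124, against 98.5, 215 and 189.6 CPM in WT. In none of them did the genotypes overlap, and the log2 fold changes were 1.69 ± 0.18, 2.18 ± 0.19, 1.74 ± 0.21 and 1.67 ± 0.23 in that order. The largest of their adjusted p-values was 0.000668.

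**Figure D3:**
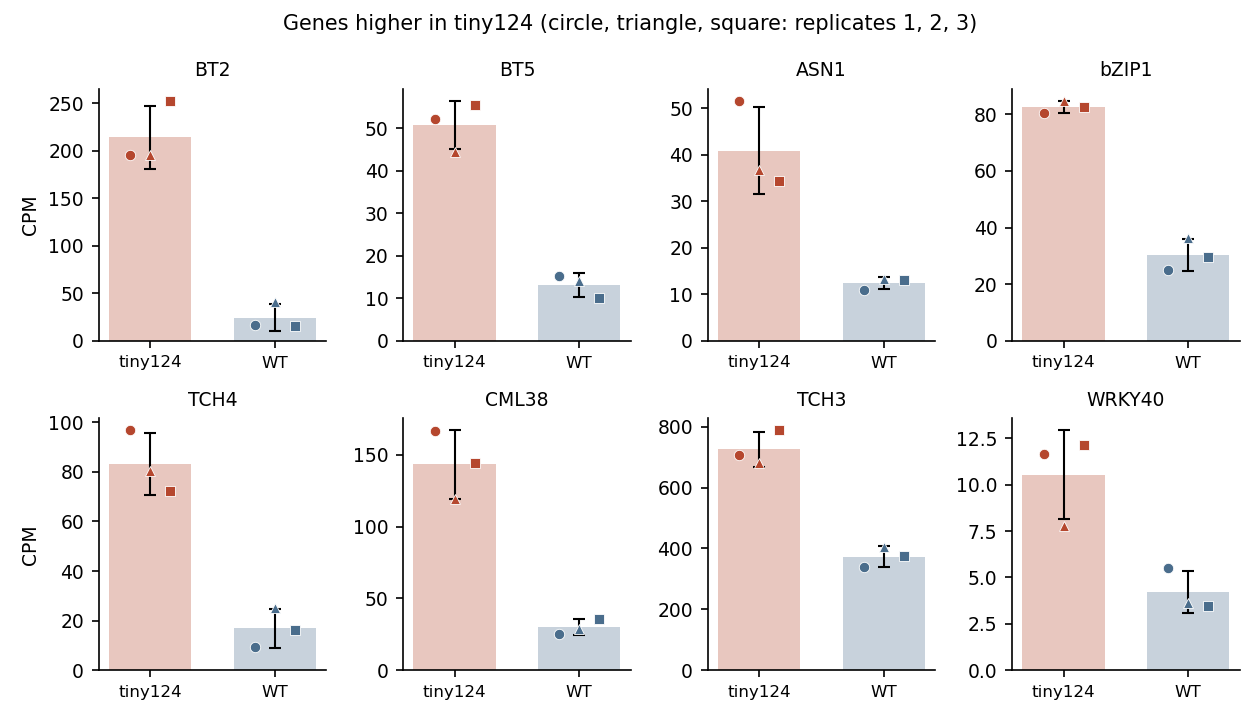
Levels in CPM (vertical axes, each from 0) of 8 genes higher in tiny124 (left) than in WT (right); bars are means, error bars SD over 3 libraries, and circles, triangles and squares are replicates 1, 2 and 3. In each panel all tiny124 libraries lie above all WT libraries, and in BT2 WT replicate 2 is the highest of the WT libraries.

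Touch and wounding switch on calmodulin-like proteins and wall enzymes within minutes, and 5 of 18 tested genes of that list were higher in tiny124 and none lower (median log2 fold change 0.61). TCH4 stood at 96.8, 80.4 and 72.1 CPM in tiny124, against 9.30, 24.99 and 16.3 CPM in WT. CML38 stood at 167, 119 and 144 CPM in tiny124, against 25.1, 28.4 and 35.9 CPM in WT. The lowest tiny124 library was above the highest WT library in both. TCH2 and TCH3, calmodulin-like proteins found with TCH4 as touch-induced genes, were at 0.99 (adjusted p = 0.00896) and 0.96 (adjusted p = 0.00253), and MYBR1, known as MYB44, was at 1.10 (adjusted p = 0.00916) (log2 fold changes). TCH3 stood at 709, 679.5 and 789 CPM in tiny124, against 338, 406 and 376 CPM in WT. CML41 (-0.56) and CAM9 (0.05) did not pass the test. WT replicate 2 was the highest WT library in 15 of the 18 genes, and without it 5 were called. The highest adjusted p with a single library left out was 0.0524 for MYB44 without tiny124 replicate 2 and 0.0529 for TCH2 without tiny124 replicate 1.

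Transcription factors of rapid stress responses had medians above 0 with few calls. Of 9 tested stress ERF factors, 1 was called, ERF6, an activator of oxidative stress genes, at 26.5, 12.6 and 22.2 CPM in tiny124, against 5.32, 7.41 and 5.87 CPM in WT (1.72 ± 0.28, adjusted p = 0.00362, log2 fold change). The median of the 9 was 0.69, and the rest did not pass the test. Of 6 tested C2H2 zinc-finger factors, all 6 had values above 0 and their median was 0.79, but 1 was called, AZF1 (ZF1 in the annotation), a repressor of the salt response, at 1.70 (adjusted p = 0.038). STZ, also known as ZAT10, stood at 66.1, 38.7 and 41.0 CPM in tiny124, against 27.3, 26.5 and 30.2 CPM in WT, with groups that did not overlap and an adjusted p of 0.0694. With 1 library left out, the highest adjusted p was 0.176 for AZF1 without tiny124 replicate 1 or 3 or WT replicate 1 or 2 or 3. The call was also lost with DESeq2 (adjusted p = 0.0608) and in the fit of only the 6 tiny124 and WT libraries (adjusted p = 0.0784).

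WRKY factors, regulators of defence and senescence that bind the W-box, were called higher in 4 of 15 tested members and lower in 1. WRKY22 was at 1.56 (adjusted p = 0.00833), WRKY40 at 1.32 (adjusted p = 0.0301), WRKY18 at 1.02 (adjusted p = 0.0132) and WRKY33 at 0.96 (adjusted p = 0.043) on the log2 scale. WRKY40 and WRKY18 are repressors of basal defence. WRKY54, a positive regulator of salicylate-dependent defence that also takes part in brassinosteroid-regulated growth, fell, at 4.90, 8.10 and 3.81 CPM in tiny124, against 15.4, 18.6 and 20.7 CPM in WT. Its partner WRKY70 was at -0.17 (adjusted p = 0.897) and WRKY38 at -1.01 (adjusted p = 0.448). Leaving out 1 library, the adjusted p reached 0.0542 for WRKY22 without tiny124 replicate 1, 0.138 for WRKY40 without tiny124 replicate 1 or 3 or WT replicate 2 or 3 and 0.0863 for WRKY18 without tiny124 replicate 1 or 2 or WT replicate 3. It was 0.196 for WRKY33 without tiny124 replicate 1 or 2 or 3 or WT replicate 1 or 3. WRKY33 was also lost when only the 6 libraries were fitted (adjusted p = 0.0611). Outside the lists, the CCCH zinc-finger factor SZF1, named after its values were seen, stood at 215, 153 and 215 CPM in tiny124, against 49.4, 59.7 and 58.8 CPM in WT (1.80 ± 0.19, adjusted p = 8.57e-05, log2 fold change). HSPRO2, an ortholog of a nematode-resistance protein that interacts with SnRK1, was also named after its values were seen and stood at 348, 235 and 332 CPM in tiny124, against 83.2, 87.9 and 116 CPM in WT (1.67 ± 0.19, adjusted p = 0.000173).

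Jasmonate, the hormone of wounding and herbivore defence, is made from plastid lipids by lipoxygenases and cyclases, and it releases MYC factors from JAZ repressors. Of 17 tested genes of its synthesis and turnover, LOX4 was called, at 32.2, 22.0 and 19.2 CPM in tiny124, against 4.56, 6.99 and 6.42 CPM in WT (2.03 ± 0.35, adjusted p = 0.0051, log2 fold change). Its relatives LOX2 (0.14) and LOX3 (0.59), the cyclase genes AOC1 (0.66) and AOC2 (0.51) and OPR3 (0.79) did not pass the test. Of 9 tested JAZ genes, 2 were higher: TIFY7, known as JAZ9, at 132, 112 and 103 CPM in tiny124, against 46.3, 51.5 and 76.1 CPM in WT, and JAZ3 at 24.1, 14.4 and 16.7 CPM in tiny124, against 6.08, 11.9 and 8.43 CPM in WT. The JAZ9 libraries of the genotypes did not overlap, and neither did those of JAZ3, whose lowest tiny124 value was close to its highest WT value. The log2 fold changes were 0.997 ± 0.19 (adjusted p = 0.00951) for JAZ9 and 1.07 ± 0.26 (adjusted p = 0.0415) for JAZ3. MYC2, the master factor of the pathway, was at 0.69 (adjusted p = 0.218). When single libraries were left out, the adjusted p reached 0.0714 for JAZ9 without tiny124 replicate 1 and 0.259 for JAZ3 without tiny124 replicate 1 or 3 or WT replicate 1 or 3. With the TINYOE libraries left out of the fit, the call of JAZ3 (adjusted p = 0.0809) was lost.

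Of 11 tested factors and outputs of jasmonate, VSP2 and THI2.1 were higher and none was lower (median 0.69). VSP2, a vegetative storage protein with a role against insects, stood at 37.7, 23.6 and 35.6 CPM in tiny124, against 17.7, 5.72 and 12.8 CPM in WT (1.41 ± 0.30, adjusted p = 0.0169, log2 fold change). VSP1 (0.61, adjusted p = 0.379), the lectin-like JR1 (0.80, adjusted p = 0.188) and CORI3 (0.52, adjusted p = 0.41) did not pass the test, and PDF1.2, an output of the branch shared with ethylene, was at -0.10 (adjusted p = 0.955). VSP1 and VSP2 are near-copies, and the counting could split tags between them. The highest adjusted p with a single library left out was 0.209 for THI2.1 without tiny124 replicate 1 or 3 or WT replicate 2 or 3 and 0.0964 for VSP2 without tiny124 replicate 1 or 3 or WT replicate 3.

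Among the genes named here, BGLU18 and PYK10 encode beta-glucosidases of the ER bodies, compartments of the endoplasmic reticulum that hold defence enzymes. BGLU18, which can also release abscisic acid from its sugar conjugate, stood at 781, 638 and 757 CPM in tiny124, against 341, 208 and 357 CPM in WT (1.26 ± 0.20, adjusted p = 0.00277, log2 fold change). PYK10, known mainly from roots, stood at 38.6, 49.0 and 51.2 CPM in tiny124, against 19.4, 8.47 and 16.3 CPM in WT (1.64 ± 0.32, adjusted p = 0.0114). Neither overlapped between the genotypes. The list of glucosinolates, the mustard oil precursors, held PYK10 and 3 further called genes among 33 tested: CYP81F2, which modifies indole glucosinolates (1.43, adjusted p = 0.0345), the regulator MYB51 (0.86, adjusted p = 0.0202) and the specifier protein NSP1 (0.75, adjusted p = 0.0215). Its median was 0.01, MYB28 and MYB29 of the aliphatic branch lay at -0.45 and -0.66, and MYB34 at -1.17 (adjusted p = 0.289). With 1 library left out, the highest adjusted p was 0.171 for CYP81F2 without tiny124 replicate 1 or 2 or 3 or WT replicate 1 or 2 or 3, 0.13 for MYB51 without tiny124 replicate 1 or 3 or WT replicate 3 and 0.109 for NSP1 without tiny124 replicate 1 or 2 or WT replicate 3.

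Salicylate carries resistance to pathogens that live on living tissue, and several of its genes fell. Of 24 tested members of the salicylate and pipecolate list, 4 were lower and none was higher by edgeR, with a median of -0.57, while DESeq2 called 5 lower and 1 higher. PR5 stood at 26.4, 34.1 and 28.0 CPM in tiny124, against 89.6, 169 and 48.8 CPM in WT. BGL2, the glucanase PR2, stood at 58.9, 46.3 and 76.8 CPM in tiny124, against 204, 272 and 105 CPM in WT. DMR6 stood at 29.0, 28.1 and 22.9 CPM in tiny124, against 88.1, 94.0 and 63.6 CPM in WT, and LURP1, a gene of late resistance to downy mildew, at 37.3, 41.2 and 29.2 CPM in tiny124, against 64.0, 101 and 87.6 CPM in WT. All tiny124 libraries were below all WT libraries in these genes, although the highest WT value of PR5, in replicate 2, was over 3 times the lowest. The log2 fold changes were -1.79 ± 0.38 (adjusted p = 0.0188), -1.67 ± 0.32 (adjusted p = 0.00908), -1.62 ± 0.19 (adjusted p = 0.000173) and -1.23 ± 0.20 (adjusted p = 0.00378) in the same order.

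PR1, the best-known marker of the pathway, stood at 16.6, 16.4 and 14.3 CPM in tiny124, against 59.6, 151 and 14.5 CPM in WT, with WT replicate 3 inside the range of tiny124, and did not pass the test (log2 fold change -2.25 ± 0.59, adjusted p = 0.0579). ALD1, which starts pipecolate synthesis, was at -3.04 (adjusted p = 0.0866), with under 3 CPM in every tiny124 and WT library. The synthesis gene EDS16, known as ICS1, was at -0.46 (adjusted p = 0.504), the receptor NPR1 at -0.15 (adjusted p = 0.824) and the regulators EDS1 and PAD4 at -0.14 and -0.27. CBP60G, an activator of the synthesis gene, was at 0.97 (adjusted p = 0.101), opposite in sign and not called. WT replicate 2 was the highest WT library in 17 of the 24 genes, and without it 4 members were called lower and 1 higher. Over the libraries left out in turn the number ran from 2 to 7. Leaving out 1 library, the adjusted p reached 0.109 for PR5 without tiny124 replicate 1 or 2 or 3 and 0.0606 for PR2 without tiny124 replicate 1 or 2.

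**Figure D4:**
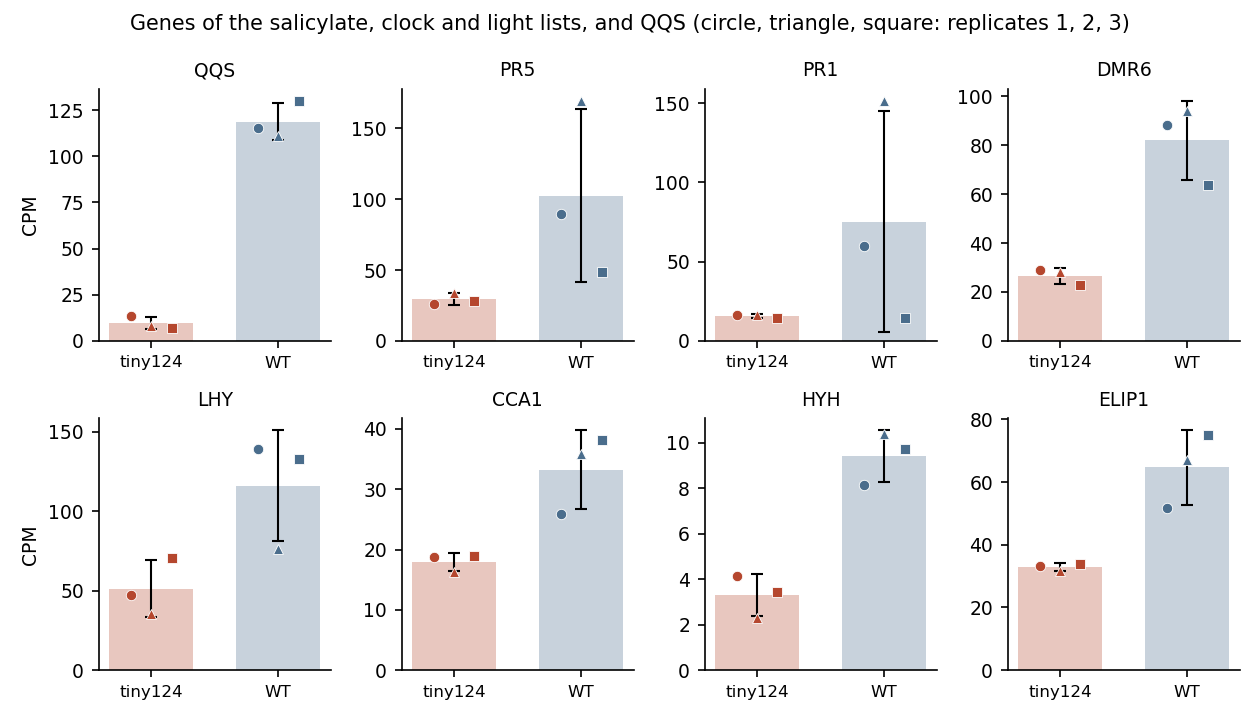
Levels in CPM (vertical axes, each from 0) in tiny124 (left) and WT (right) of QQS, of 3 genes of the salicylate list, of which PR1 was not called, of the clock genes LHY and CCA1 and of the light-response genes HYH and ELIP1; bars are means, error bars SD over 3 libraries, and circles, triangles and squares are replicates 1, 2 and 3. WT libraries of PR5 and PR1 spread over a wide range, and WT replicate 3 of PR1 is level with tiny124.

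The circadian clock of plants opens the day with the MYB-like repressors CCA1 and LHY, and rosettes of both genotypes were collected at a time that the labels do not give. Of 23 tested clock genes 5 were lower in tiny124 and none was higher, with a median of -0.20. LHY stood at 47.4, 35.6 and 70.8 CPM in tiny124, against 139, 76.0 and 133 CPM in WT. CCA1 stood at 18.8, 16.2 and 18.9 CPM in tiny124, against 25.8, 35.8 and 38.1 CPM in WT. The tiny124 and WT ranges did not overlap in either gene, and the highest tiny124 value of LHY, in replicate 3, was close to the lowest WT value, in replicate 2. The log2 fold changes were -1.18 ± 0.26 (adjusted p = 0.0206) for LHY and -0.89 ± 0.21 (adjusted p = 0.0314) for CCA1. The CONSTANS-like genes COL1 (-0.87, adjusted p = 0.0188) and COL2 (-1.01, adjusted p = 0.0325) and the clock activator AT5G64170, known as LNK1 (-0.81, adjusted p = 0.0314), fell as well. AT3G54500, known as LNK2, was at -0.77 (adjusted p = 0.0627) and PRR9 at -1.60 (adjusted p = 0.083). The evening genes TOC1 (0.50, adjusted p = 0.316), GI (0.00) and ELF4 (0.40, adjusted p = 0.78) and the afternoon gene PRR7 (-0.10, adjusted p = 0.89) did not pass the test. When single libraries were left out, the adjusted p reached 0.124 for LHY without tiny124 replicate 1 or 2 or WT replicate 3, 0.154 for CCA1 without tiny124 replicate 1 or 2 or 3 or WT replicate 3 and 0.141 for COL2 without tiny124 replicate 1 or 2 or 3 or WT replicate 1 or 3. It was 0.0974 for COL1 without tiny124 replicate 1 or 2 or 3 or WT replicate 3 and 0.196 for AT5G64170 without tiny124 replicate 1 or 2 or 3 or WT replicate 1 or 3. In the fit of only the 6 tiny124 and WT libraries, the call of AT5G64170 (adjusted p = 0.0552) was lost.

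Light-response genes moved in both directions. Of 12 tested, HYH, ELIP1 and ELIP2 were lower and HB-2 was higher. HYH, a relative of the light-signalling factor HY5, stood at 4.14, 2.32 and 3.45 CPM in tiny124, against 8.16, 10.4 and 9.72 CPM in WT. ELIP1 and ELIP2, early light-induced proteins that protect chloroplasts, stood at 33.3, 31.6 and 33.8 CPM in tiny124, against 51.8, 67.1 and 75.2 CPM in WT in ELIP1 and at 12.4, 10.9 and 9.81 CPM in tiny124, against 20.7, 29.6 and 29.3 CPM in WT in ELIP2. HB-2, a homeobox factor induced by shade, stood at 29.2, 26.1 and 28.7 CPM in tiny124, against 7.21, 13.8 and 11.0 CPM in WT. The genotypes did not overlap in these genes, and the log2 fold changes were -1.51 ± 0.27 (adjusted p = 0.00555), -0.98 ± 0.23 (adjusted p = 0.0368), -1.26 ± 0.20 (adjusted p = 0.00249) and 1.40 ± 0.21 (adjusted p = 0.00185). HY5 itself was at -0.19 (adjusted p = 0.85), PIF4 at 0.14 (adjusted p = 0.843) and PIL6, known as PIF5, at 0.45 (adjusted p = 0.494). The highest adjusted p with a single library left out was 0.161 for ELIP1 without tiny124 replicate 1 or 2 or 3 or WT replicate 3.

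Further genes that fell, outside the lists, were named after their values were seen. CDF3, a DOF factor of the day length response, stood at 26.5, 23.5 and 26.7 CPM in tiny124, against 55.8, 50.6 and 57.7 CPM in WT (-1.10 ± 0.18, adjusted p = 0.0039, log2 fold change). STH, the B-box protein BBX25, was at -1.17 ± 0.21 (adjusted p = 0.00632), and GNC, a GATA factor of chloroplast development, at -1.13 ± 0.19 (adjusted p = 0.00407). Large decreases were also found in genes without a symbol in the reference annotation. AT2G15020 stood at 4.52, 8.10 and 5.45 CPM in tiny124, against 45.9, 36.8 and 26.6 CPM in WT (-2.58 ± 0.26, adjusted p = 6.83e-05). AT3G44450 stood at 17.7, 30.9 and 18.3 CPM in tiny124, against 67.8, 132 and 63.1 CPM in WT (-1.97 ± 0.30, adjusted p = 0.00168). AT3G52740 was at -1.49 ± 0.26 (adjusted p = 0.00471).

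None of the listed genes of brassinosteroid synthesis, inactivation or signalling passed the test. Of 13 tested synthesis and inactivation genes the median was 0.13, and the member with the smallest p was the cytochrome P450 CPD at 61.0, 64.7 and 62.8 CPM in tiny124, against 40.2, 48.7 and 65.3 CPM in WT (0.29 ± 0.20, adjusted p = 0.659, log2 fold change). DWF4, the gene of the rate-limiting step, was at 0.32 (adjusted p = 0.695), and BAS1, which inactivates the hormone, at -0.41 (adjusted p = 0.811). Of 15 signalling genes the median was 0.09. The receptor BRI1 was at -0.09 ± 0.20, its co-receptor BAK1 at 0.15 ± 0.20, the kinase BIN2 at 0.10 ± 0.21, and the factors BES1 and BZR1 at 0.25 ± 0.15 and 0.30 ± 0.21. BES1 stood at 77.8, 75.7 and 70.6 CPM in tiny124, against 67.4, 61.4 and 59.4 CPM in WT, which did not overlap but did not pass the test (adjusted p = 0.594). The unadjusted p was under 0.05 in none of the genes of either list, and DESeq2 called 0. Of 8 growth-promoting or growth-repressing bHLH factors, none was called and 7 had values above 0 (median 0.45, 2 with an unadjusted p under 0.05, and 0 called by DESeq2). PAR1 was at 0.82 (adjusted p = 0.203), BEE1 at 0.59 (adjusted p = 0.264) and PRE1 at 0.79 (adjusted p = 0.435).

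Cell wall loosening enzymes, targets of several growth hormones, split in direction. Of 32 tested xyloglucan endotransglucosylases and expansins, XTH30 (1.39, adjusted p = 0.00772) and EXGT-A3, known as XTH27 (0.74, adjusted p = 0.0163), were higher and EXPA1 was lower (-0.77, adjusted p = 0.0426), with a median of -0.08. TCH4, of the same family, is counted among the touch genes. EXPA1, an expansin of leaf and guard cells, stood at 104, 105 and 97.0 CPM in tiny124, against 131, 209 and 180.4 CPM in WT. XTH31 (-1.23, adjusted p = 0.325) and XTH18 (1.29, adjusted p = 0.268) did not pass the test. With 1 library left out, the highest adjusted p was 0.0505 for XTH30 without WT replicate 3, 0.0936 for XTH27 without tiny124 replicate 2 or WT replicate 3 and 0.167 for EXPA1 without tiny124 replicate 1 or 2 or 3 or WT replicate 2 or 3. When only the 6 tiny124 and WT libraries were fitted, the call of EXPA1 (adjusted p = 0.073) was lost.

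Among 27 tested auxin genes, 3 were higher and none lower (median 0.33). The early response genes IAA1 and IAA2 stood at 1.07 (adjusted p = 0.0215) and 0.91 (adjusted p = 0.00882), and WES1, known as GH3.5, which couples auxin to amino acids, at 1.11 (adjusted p = 0.0396) on the log2 scale. IAA2 stood at 126, 113 and 111 CPM in tiny124, against 53.3, 76.7 and 55.9 CPM in WT. IAA19 (0.33) and IAA29 (0.91) did not pass the test, nor did any tested SAUR gene, and SAUR genes can share tags with near-copies. Leaving out 1 library, the adjusted p reached 0.149 for GH3.5 without tiny124 replicate 1 or 2 or 3 or WT replicate 1 or 2 or 3, 0.121 for IAA1 without tiny124 replicate 1 or 2 or WT replicate 1 or 3 and 0.0604 for IAA2 without tiny124 replicate 1 or WT replicate 3. The call of GH3.5 was also lost with DESeq2 (adjusted p = 0.0501) and in the fit of only the 6 libraries (adjusted p = 0.0712). Of 13 gibberellin genes, AT5G14920, a GASA peptide gene, was higher at 104, 77.7 and 105 CPM in tiny124, against 35.3, 58.9 and 59.4 CPM in WT (0.90, adjusted p = 0.029), a call lost without tiny124 replicate 1 or 3 or WT replicate 1 or 3 (adjusted p up to 0.148) and in the fit of only the 6 libraries (adjusted p = 0.0653). Of 8 tested type-A response regulators of cytokinin and of 16 tested ethylene genes none was called by edgeR or DESeq2, and an unadjusted p under 0.05 was reached by 0 and 2 of them. RR5 was at 0.46 (adjusted p = 0.433), and the ethylene receptor ETR2 at 1.22 (adjusted p = 0.279).

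Among 33 tested genes of dehydration and abscisic acid, the drought hormone, 1 was higher and none lower, with a median of 0.07. The higher one was RD26, a NAC factor that mediates the drought response and restrains brassinosteroid-regulated growth. RD26 stood at 72.7, 74.7 and 72.8 CPM in tiny124, against 31.7, 29.2 and 26.2 CPM in WT, nearly the same in all tiny124 libraries and above every WT library. Its log2 fold change was 1.34 ± 0.19 (adjusted p = 0.000848), with the highest adjusted p over the libraries left out at 0.0104. The drought effectors LTI78, also called RD29A, RAB18 and RD22 were at -0.12, -0.29 and -0.26, the abscisic acid synthesis gene NCED3 at 0.45 (adjusted p = 0.752), and LTI65, also called RD29B, at -1.22 (adjusted p = 0.588). DREB2A, a relative of TINY that drives drought genes, was at -0.17 (adjusted p = 0.941). Of 8 tested cold-regulon genes none was called by edgeR or DESeq2, 1 had an unadjusted p under 0.05, and this was KIN2 (0.42, adjusted p = 0.252).

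Nutrient lists held few calls. Of 10 nitrate genes, the regulators LBD38 (0.93, adjusted p = 0.029) and LBD37 (0.67, adjusted p = 0.0411), which repress nitrogen uptake genes, were higher, while the reductase NIA1 (-0.24) and the transporter NRT1.1 (-0.50) did not pass the test. Of 20 genes of phosphate, sulfur and iron deficiency, ATSDI1, a gene of sulfur deficiency, was higher at 11.9, 12.9 and 13.4 CPM in tiny124, against 5.13, 6.78 and 4.95 CPM in WT (1.18, adjusted p = 0.00855). AT2G30766 was lower at 5.08, 6.61 and 4.72 CPM in tiny124, against 13.9, 12.5 and 14.5 CPM in WT (-1.31, adjusted p = 0.00833). When single libraries were left out, the adjusted p reached 0.104 for LBD38 without tiny124 replicate 1 or 2 or 3 or WT replicate 1 or 3, 0.159 for LBD37 without tiny124 replicate 1 or 2 or 3 or WT replicate 1 or 3 and 0.0516 for ATSDI1 without WT replicate 3. It was 0.0542 for AT2G30766 without tiny124 replicate 1. With the TINYOE libraries left out of the fit, the calls of LBD38 and LBD37 (adjusted p = 0.0653 to 0.0954) were lost.

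Of 48 nuclear photosynthesis genes, the core of a rosette's transcriptome, 1 was called, the aldolase FBA1 of the Calvin cycle, at 639, 613 and 719 CPM in tiny124, against 1036, 1005 and 1029.9 CPM in WT (-0.64 ± 0.14, adjusted p = 0.022, log2 fold change). The median of the list was -0.08, and the summed level ran from 181253 to 190948 CPM in tiny124 and from 190202 to 208226 CPM in WT. Of 11 senescence genes, SAG20 (0.87, adjusted p = 0.0163) and SAG21 (0.84, adjusted p = 0.0185) were higher, and SAG12, the marker of late leaf senescence, was at -1.25 (adjusted p = 0.473). Of 7 heat and folding genes, the chaperone BIP3 was lower (-1.16, adjusted p = 0.0411). None was called by edgeR or DESeq2 among 15 flavonoid, 18 cell division, 16 aquaporin and 8 flowering-time genes, of which 5, 0, 0 and 0 had an unadjusted p under 0.05. TT7, the flavonoid hydroxylase, came nearest (1.38, adjusted p = 0.0745). The highest adjusted p with a single library left out was 0.136 for FBA1 without tiny124 replicate 1 or 2 or WT replicate 3, 0.097 for SAG20 without tiny124 replicate 1 or 2 or WT replicate 3 and 0.101 for SAG21 without tiny124 replicate 1 or 2 or 3 or WT replicate 3. It was 0.233 for BIP3 without tiny124 replicate 1 or 2 or 3 or WT replicate 1 or 2 or 3. In the fit of only the 6 tiny124 and WT libraries, the calls of FBA1 and SAG21 (adjusted p = 0.0552 to 0.0689) were lost.

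Markers of other organs were low in both genotypes. The summed level of 12 inflorescence and flower markers was 42.7 to 47.6 CPM in tiny124 and 28.8 to 41.0 CPM in WT, none of 9 tested markers was called by edgeR or DESeq2 or had an unadjusted p under 0.05, and no marker was at 0 in all 6 libraries. The summed level of 9 root markers was 24.9 to 28.4 CPM in tiny124 and 23.0 to 29.0 CPM in WT, with PLT1 at 0 throughout. None of 3 tested root markers was called by edgeR or DESeq2, and 1 had an unadjusted p under 0.05. This was CASP1, at 2.26, 2.98 and 3.09 CPM in tiny124, against 0.949, 1.48 and 1.28 CPM in WT. Its log2 fold change was 1.16 (adjusted p = 0.314, edgeR), and the remaining 2 lay below 0. PYK10, known mainly from roots, was called higher, as given above. The called genes were not searched for others known from roots, so PYK10 need not be the only one. The summed flower markers did not overlap between the genotypes, and the part of flower or root tissue in the results above was not tested. In whole rosettes, fewer cells of a type and less RNA per cell cannot be told apart.

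The TINYOE libraries allowed a direct test of where the lines differ. The contrast of TINYOE with tiny124 compares no WT level, although the WT libraries take part in the filter, the scaling and the estimate of the spread. In it, 1618 genes (9.85%) passed the test between the lines. Against WT, 1339 genes were higher in TINYOE (8.15%) and 1222 lower (7.44%), a comparison that shares its WT libraries with that of tiny124. TINY itself was not called in it, with a log2 fold change of 0.40 (adjusted p = 0.343, edgeR). It stood at 5.43, 6.14 and 4.61 CPM in TINYOE, against 3.80, 3.81 and 4.58 CPM in WT. Among genes with a symbol, 16 were called in opposite directions in the lines and differed between them. The 8 with the smallest p of that difference are given here as a description, since the difference chose them. Genes called in the same direction in both lines were not counted here, and BT2, SEN1, TCH4 and LHY, given below, are among them.

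QQS stood at 245, 319.9 and 216 CPM in TINYOE, 13.6, 8.27 and 7.26 CPM in tiny124 and 116, 111 and 130.0 CPM in WT. LURP1 stood at 286, 216 and 290.1 CPM in TINYOE, 37.3, 41.2 and 29.2 CPM in tiny124 and 64.0, 101 and 87.6 CPM in WT. In both, every TINYOE library was above every WT library and every tiny124 library below them. GRP9, a glycine-rich protein gene, had the same order, at 279, 343 and 358 CPM in TINYOE, 28.8, 8.27 and 15.98 CPM in tiny124 and 32.1, 41.3 and 50.05 CPM in WT. So had PCR1 at 3024, 2234 and 3675 CPM in TINYOE, 537, 555 and 659.5 CPM in tiny124 and 1699.8, 1586 and 937 CPM in WT, and ANK at 66.4, 48.4 and 61.5 CPM in TINYOE, 12.6, 16.4 and 9.81 CPM in tiny124 and 29.6, 42.6 and 27.5 CPM in WT. TINYOE minus tiny124 was 4.75 ± 0.25 (adjusted p = 1.12e-08) in QQS, 2.88 ± 0.21 (adjusted p = 1.17e-06) in LURP1 and 4.21 ± 0.33 (adjusted p = 1.58e-06) in GRP9 on the log2 scale. It was 2.35 ± 0.23 (adjusted p = 1e-05) in PCR1 and 2.18 ± 0.23 (adjusted p = 2.2e-05) in ANK. GRP9 lies beside near-copies that can share its tags. For its fall in tiny124 against WT, with 1 library left out the highest adjusted p was 0.201 for GRP9 without tiny124 replicate 2 or 3 or WT replicate 3. That call was also lost when only the 6 tiny124 and WT libraries were fitted (adjusted p = 0.106) and under the filter of 5 CPM.

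The reverse order was seen in 3 genes. BGLU18 stood at 47.7, 58.2 and 41.2 CPM in TINYOE, 781, 638 and 757 CPM in tiny124 and 341, 208 and 357 CPM in WT. BAM5, a beta-amylase, stood at 1.48, 0.701 and 1.37 CPM in TINYOE, 32.4, 38.9 and 52.3 CPM in tiny124 and 23.4, 7.62 and 15.6 CPM in WT. VSP2 stood at 1.65, 2.45 and 2.56 CPM in TINYOE, 37.7, 23.6 and 35.6 CPM in tiny124 and 17.7, 5.72 and 12.8 CPM in WT. Each has its TINYOE libraries lowest and its tiny124 libraries highest, with no overlap. TINYOE minus tiny124 was -3.89 ± 0.23 (adjusted p = 4.52e-08), -5.09 ± 0.41 (adjusted p = 2.07e-06) and -3.85 ± 0.36 (adjusted p = 8.17e-06) (log2). For tiny124 against WT alone, with 1 library left out the highest adjusted p was 0.0838 for BAM5 without tiny124 replicate 3 or WT replicate 3.

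For other genes described above, the values of both lines over the same WT libraries are given side by side. BT2 was at 3.13 (adjusted p = 2.15e-05) in tiny124 and at 4.10 (adjusted p = 1.12e-06) in TINYOE, and SEN1 at 1.69 (adjusted p = 0.000357) in tiny124 and 3.11 (adjusted p = 1.12e-06) in TINYOE (log2 fold changes over WT). TCH4 was at 2.31 in tiny124 and 2.06 (adjusted p = 0.000131) in TINYOE, and LHY at -1.18 in tiny124 and -1.83 (adjusted p = 0.000246) in TINYOE. PR5 and DMR6, lower in tiny124, were at -0.02 (adjusted p = 0.978) and 0.13 (adjusted p = 0.672) in TINYOE and did not pass the test there. These values share the WT libraries, so a WT library that is off on its own moves both lines together.

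**Figure D5:**
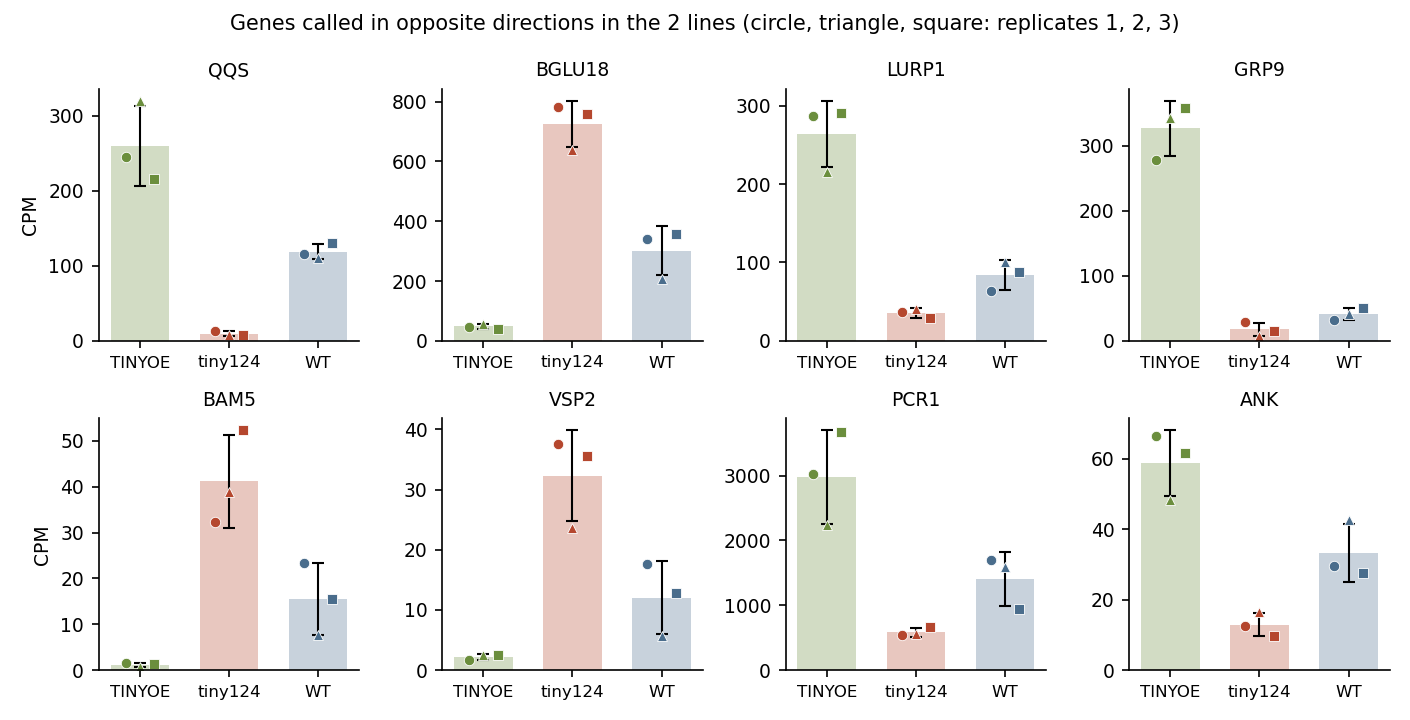
Levels in CPM (vertical axes, each from 0) of 8 genes in TINYOE (left), tiny124 (middle) and WT (right); bars are means, error bars SD over 3 libraries, and circles, triangles and squares are replicates 1, 2 and 3. QQS, LURP1, GRP9, PCR1 and ANK are highest in TINYOE and lowest in tiny124, and BGLU18, BAM5 and VSP2 show the reverse.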

How the data were processed

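RNA of 9 libraries, 3 each of tiny124, TINYOE and WT, was made into 3'-end libraries from about 500 ng of RNA and read for 50 nt, per the labels' protocols. The deposited table holds raw counts per gene that the authors made on TAIR10 with version 2.2.2 of BlueBee's Lexogen QuantSeq FWD pipeline, per the design text of the series. Not given in the sources used here are the aligner, the annotation and the strand setting, so overlapping, antisense and near-identical genes are uncertain. The deposited fold changes and p-values were not used.

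Genes were kept by filterByExpr of edgeR 4.0.16 (16434 of 32833, and the genes dropped held 0.296% of counts), and libraries were scaled by TMM. One quasi-likelihood fit of all 9 libraries by genotype (R 4.3.3, limma 3.58.1) gave the contrasts, with Benjamini-Hochberg adjustment over all tested genes and a threshold of 0.05. The SE is the size of the log2 fold change divided by the square root of F. Levels are CPM scaled by TMM. No labels say that replicates came from separate plants. The p-values set the difference between genotypes against the spread between these libraries, and that spread may be technical. The script was tested on simulated data.

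Named genes were the 12 largest changes in each direction among called genes with a symbol, no overlap and a mean level of 5 CPM or more, up to 3 called members of each list with the largest change (or the member with the smallest p where none was called), tested members of the TINY subgroup, and the 8 opposite genes with the smallest p between the lines. Further list members were added after their values were seen. The members and the 34 lists (547 of 652 loci tested) were chosen with earlier results of these data known. Gene symbols came from the reference annotation, in which 32548 IDs matched. Promoters were cut from the TAIR10.1 genome and RefSeq annotation with pyfaidx 0.9.0.4. Alternatives were DESeq2 1.42.0, its size factors, no filter, a filter of 5 CPM in 3 libraries, the 6 libraries alone and a replicate block. Each tiny124 and WT library was also left out in turn. A fit of only 5 libraries, without TINYOE and WT replicate 2, was added after seeing the data.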

Additional observations from a re-analysis of the deposited data

Results flagged for a closer look

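The 8 genes called in opposite directions in the lines, each against the same WT libraries, were chosen from 16 such genes with a symbol for the smallest p in the direct test of TINYOE against tiny124. TINYOE minus tiny124 was 4.75 ± 0.25 (adjusted p = 1.12e-08) in QQS, 2.88 ± 0.21 (adjusted p = 1.17e-06) in LURP1, 4.21 ± 0.33 (adjusted p = 1.58e-06) in GRP9, 2.35 ± 0.23 (adjusted p = 1e-05) in PCR1 and 2.18 ± 0.23 (adjusted p = 2.2e-05) in ANK, on the log2 scale (edgeR's quasi-likelihood test). It was -3.89 ± 0.23 (adjusted p = 4.52e-08) in BGLU18, -5.09 ± 0.41 (adjusted p = 2.07e-06) in BAM5 and -3.85 ± 0.36 (adjusted p = 8.17e-06) in VSP2. Because this difference chose the genes, the values are a description and support nothing further.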

How the results depend on the processing

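No called gene followed through the alternatives changed direction. Of the uncalled family members, AT4G16750 (-0.05), AT1G44830 (0.47) and AT4G31060 (0.15) took the opposite sign without single libraries (ranges -0.13 to 0.10, -0.02 to 0.87 and -0.18 to 0.34). Of 117 called genes that are named or in the lists, 51 stayed called in every alternative and 66 were lost in at least 1, 23 of them under the replicate block and 4 with DESeq2 (THI2.1, AZF1, GH3.5 and CYP71A13). Over the libraries left out in turn, the genes called higher numbered from 129 to 375 and those called lower from 34 to 151, against 287 and 124. Without a low-count filter 488 were higher and 218 lower, of which 407 of the 706 were shared with the 411. The fit of only the 6 libraries gave 81 lower genes and the replicate block 75, beside 203 and 217 higher. DESeq2 called 333 higher and 153 lower, sharing 394 of its 486 calls. The fit of only 5 libraries, without WT replicate 2, added after seeing the data, called 354 higher and 131 lower. The causes were not tested. Whether replicate numbers pair the libraries was left undecided. The correlations of same-numbered deviations were -0.17, 0.36 and -0.03 for replicates 1, 2 and 3, too few to show or exclude a shared batch. Low counts limit TINY2, TINY and other genes near the filter, and the interval given for TINY2 covers counting error only.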

Other observations

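Several called genes outside the lists, chosen after their values were seen, are regulators of chloroplasts and light. GLK2 was at -0.92 ± 0.17 (adjusted p = 0.00866) and GPRI1, known as GLK1, at -0.72 ± 0.18 (adjusted p = 0.0416) (log2 fold change, tiny124 over WT). These are the paired activators of chloroplast development. GPRI1 stood at 28.1, 23.3 and 22.7 CPM in tiny124, against 41.6, 37.9 and 42.2 CPM in WT. GNC, a GATA factor of greening, stood at 31.3, 46.8 and 34.0 CPM in tiny124, against 76.7, 95.3 and 74.1 CPM in WT. The light-signalling protein TZP was at -1.14 ± 0.25 (adjusted p = 0.0234), the chaperone-like JAC1 of chloroplast movement at -0.76 ± 0.19 (adjusted p = 0.0422), and STH, the B-box protein BBX25, at -1.17 ± 0.21 (adjusted p = 0.00632). In each, all tiny124 libraries were below all WT libraries. With 1 library left out, the highest adjusted p was 0.0532 for GLK2 without tiny124 replicate 1, 0.182 for GPRI1 without tiny124 replicate 1 or 2 or 3 or WT replicate 1 or 3 and 0.139 for TZP without tiny124 replicate 1 or 2 or WT replicate 1. It was 0.233 for JAC1 without tiny124 replicate 1 or 2 or 3 or WT replicate 1 or 2 or 3. GPRI1 (adjusted p = 0.0763) and JAC1 (adjusted p = 0.0784) were also lost when only the 6 tiny124 and WT libraries were fitted. The homeobox gene HAT1 was higher, at 99.8, 79.7 and 93.3 CPM in tiny124, against 36.3, 40.7 and 36.3 CPM in WT (1.27 ± 0.16, adjusted p = 0.000407).

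Immune genes outside the lists moved in both directions. The receptor-like proteins RLP23 (-1.15, adjusted p = 0.00185) and RLP33 (-1.31, adjusted p = 0.0246) were lower. So were ACD6 (-0.82, adjusted p = 0.0132), DND1 (-0.78, adjusted p = 0.0365) and the camalexin gene CYP71A13 (-2.34, adjusted p = 0.0415), whose libraries overlapped. The oxidase RBOHD, which produces reactive oxygen at the membrane (1.09, adjusted p = 0.0314), the ubiquitin ligase CNI1, known as ATL31 and sensitive to carbon and nitrogen (1.68, adjusted p = 0.000256), and the calcium-dependent kinase CPK28 (0.93, adjusted p = 0.0162) were higher. CNI1 stood at 80.6, 49.9 and 68.8 CPM in tiny124, against 19.4, 23.7 and 19.2 CPM in WT. TSA1, an ER body protein, was at 0.99 (adjusted p = 0.0122), the indole glucosinolate genes IGMT1 and CYP81F4 at 1.58 (adjusted p = 0.0144) and 2.39 (adjusted p = 0.0132), and IGMT1 has a close copy that can share its tags. Among abundant genes, ECS1 (-0.60, adjusted p = 0.0314) and AT2G25510 (-0.63, adjusted p = 0.0314) were lower, as was UBQ10 (-0.90, adjusted p = 0.0128), whose near-identical relatives make its value uncertain. Leaving out 1 library, the adjusted p reached 0.13 for RLP33 without tiny124 replicate 1 or 2 or 3 or WT replicate 1 or 2, 0.0941 for ACD6 without tiny124 replicate 1 or 2 or WT replicate 3 and 0.165 for DND1 without tiny124 replicate 1 or 2 or 3 or WT replicate 2 or 3. It was 0.176 for CYP71A13 without tiny124 replicate 1 or 2 or 3 or WT replicate 1 or 2, 0.143 for RBOHD without tiny124 replicate 1 or 2 or 3 or WT replicate 1 or 2 and 0.0878 for CPK28 without tiny124 replicate 1 or 3 or WT replicate 3. It was 0.0672 for TSA1 without tiny124 replicate 2, 0.0841 for IGMT1 without tiny124 replicate 1 or 3 or WT replicate 3 and 0.073 for CYP81F4 without tiny124 replicate 3. It was 0.159 for ECS1 without tiny124 replicate 1 or 2 or 3 or WT replicate 3, 0.124 for AT2G25510 without tiny124 replicate 1 or 2 or 3 or WT replicate 3 and 0.0858 for UBQ10 without tiny124 replicate 1 or 2. The fit of only the 6 libraries also lost RBOHD (adjusted p = 0.0617), CYP71A13 (adjusted p = 0.0763), ECS1 (adjusted p = 0.0944) and AT2G25510 (adjusted p = 0.0966).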
